A study of Mus musculus with 9 samples.

Results

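The nuclear genes that encode subunits of the mitochondrial respiratory chain and of ATP synthase were followed in RNA sequencing of mouse splenic monocytes. Members were chosen by symbol, as genes named Nduf (a, b, c, s or v with a number, and Ndufab1), Sdha to Sdhd, Uqcr, Cyc1, Cox4 to Cox8 or Atp5, and 86 of the 46072 genes in the deposited tables matched. They comprised 38 genes of complex I, 4 of complex II, 9 of complex III, 18 of complex IV and 17 of complex V, which is ATP synthase. Symbols marked as pseudogenes were left out, and Uqcrc1, listed under 2 identifiers, was represented by the row with the higher level. The name rule also took in Atp5s and Atp5sl, which are not structural subunits of the synthase, and Ndufa4, which was named as a complex I subunit and is now assigned to complex IV.

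Monocytes came from spleens of female C57BL/6 mice of 8 to 10 weeks in 3 groups, with 3 libraries each. Con mice were gavaged with water, and Van mice with vancomycin, a glycopeptide antibiotic that acts in the gut, as 2 daily gavages of 1 mg over 6 days. VanLip mice received the same vancomycin course and then L654, a lipopeptide of gut Bacteroidota that is a ligand of the receptor TLR2, by the retro-orbital route on days 7, 9 and 11. All groups rested without antibiotic, for 6 to 8 days by the labels and for 8 days by the RNA sequencing protocol. No group received L654 without vancomycin, so an effect of the lipid alone cannot be read from these libraries. The study's account of these groups does not state whether Con and Van mice were injected with PBS. If they were not, handling and injection cannot be told apart from L654. Monocytes were enriched by magnetic negative selection, and 3 mice were taken per group. The labels do not tie a library to 1 mouse, so the spread between libraries may be partly technical.

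The respiratory chain passes electrons from NADH and succinate to oxygen and pumps protons across the inner mitochondrial membrane. Complex I oxidises NADH, complex II oxidises succinate within the citric acid cycle, complex III passes electrons from ubiquinol to cytochrome c, and complex IV reduces oxygen. ATP synthase lets the protons flow back through a rotating ring of c subunits and makes ATP in its catalytic head. Most subunits are encoded in the nucleus and imported, and a few hydrophobic core subunits are encoded in mitochondrial DNA. Monocytes and macrophages are known for shifting between oxidative phosphorylation and glycolysis when they meet bacterial products.

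The 6 libraries of Con and Van held between 43070361 and 61383806 expected counts in total, and the 3 VanLip libraries held between 170503470 and 184720704. The commonest low count was 1.33 in every Con and Van library and 2.00 in every VanLip library, the values that reads of 100 and 150 bases would give. Reads of 100 bases are described for all libraries, so the longer reads are inferred from the counts alone. Depth, and read length by this inference, differed between VanLip and the other groups and cannot be told apart from L654 treatment. All 12 monocyte markers listed were detected in every library, with a summed level between 8779 and 12280 FPKM. Of the neutrophil list, 4 of 7 markers were detected in every library and Ly6g, a defining marker, was at 0 in all 9. The list had mean sums of 17.07, 22.08 and 24.39 FPKM in Con, Van and VanLip, with overlapping ranges. Most of each sum came from Mmp8, with means of 14.35, 20.49 and 23.26 FPKM. The other detected markers of this list averaged at most 1.07 FPKM in a group and were lower in VanLip than in Con. The 7 erythroid markers summed to between 99.7 and 202.7 FPKM in Con, 342.8 and 772.1 in Van and 278.6 and 1163 in VanLip, and the group ranges of Van and VanLip lay above that of Con. The 7 red pulp macrophage markers had mean sums of 1481, 1772 and 1507 FPKM in Con, Van and VanLip and the 5 platelet markers 16.9, 11.6 and 9.64, with overlapping ranges in both. The 6 conventional dendritic cell markers summed to between 105.4 and 120.3 FPKM in Con and 83.3 and 103.7 in VanLip, and the 7 B cell markers to between 16.8 and 19.5 in Con and 13.99 and 15.85 in Van, both without overlap. Ccr2, a receptor of classical monocytes, averaged 165, 87.2 and 201 FPKM. The part of these differences in the results below was not tested.

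Transcript levels are given as FPKM, which divides the fragments of a gene by transcript length and by library size and can be set side by side between genes. Of the 86 members, 84 had a count above 0 in at least 1 library and 81 in every library. The level was at least 10 FPKM for 73 members, between 1 and 10 for 6 and under 1 for 7. The members together made up 1.15% ± 0.019 (SD, n = 3) of all FPKM in Con, 1.15% ± 0.052 in Van and 1.23% ± 0.034 in VanLip. Van replicate 3 lay above VanLip replicate 3 in this share, so these groups overlapped. The median coefficient of variation among the 79 members at 1 FPKM or more was 4.92% within Con, 6.39% within Van and 5.56% within VanLip.

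Summed over complex I, the level was 1236 ± 10.0 FPKM in Con, 1216 ± 69.2 in Van and 1342 ± 90.9 in VanLip. For complex II it was 163 ± 6.2, 161 ± 4.6 and 177 ± 2.4, and all 3 VanLip libraries lay above all others. Complex III had 544 ± 6.3, 543 ± 23.9 and 578 ± 36.1. Complex IV had 1197 ± 12.4, 1191 ± 59.2 and 1292 ± 70.6, and complex V had 1396 ± 31.5, 1399 ± 80.9 and 1476 ± 60.2. In all complexes other than complex II the VanLip libraries overlapped those of Van. The median member of complex V had 83.4 FPKM and that of complex I 28.6 FPKM, and within every complex the spread between genes was wider than the spread between groups, as the plot of FPKM by gene shows.

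**Figure D1:**
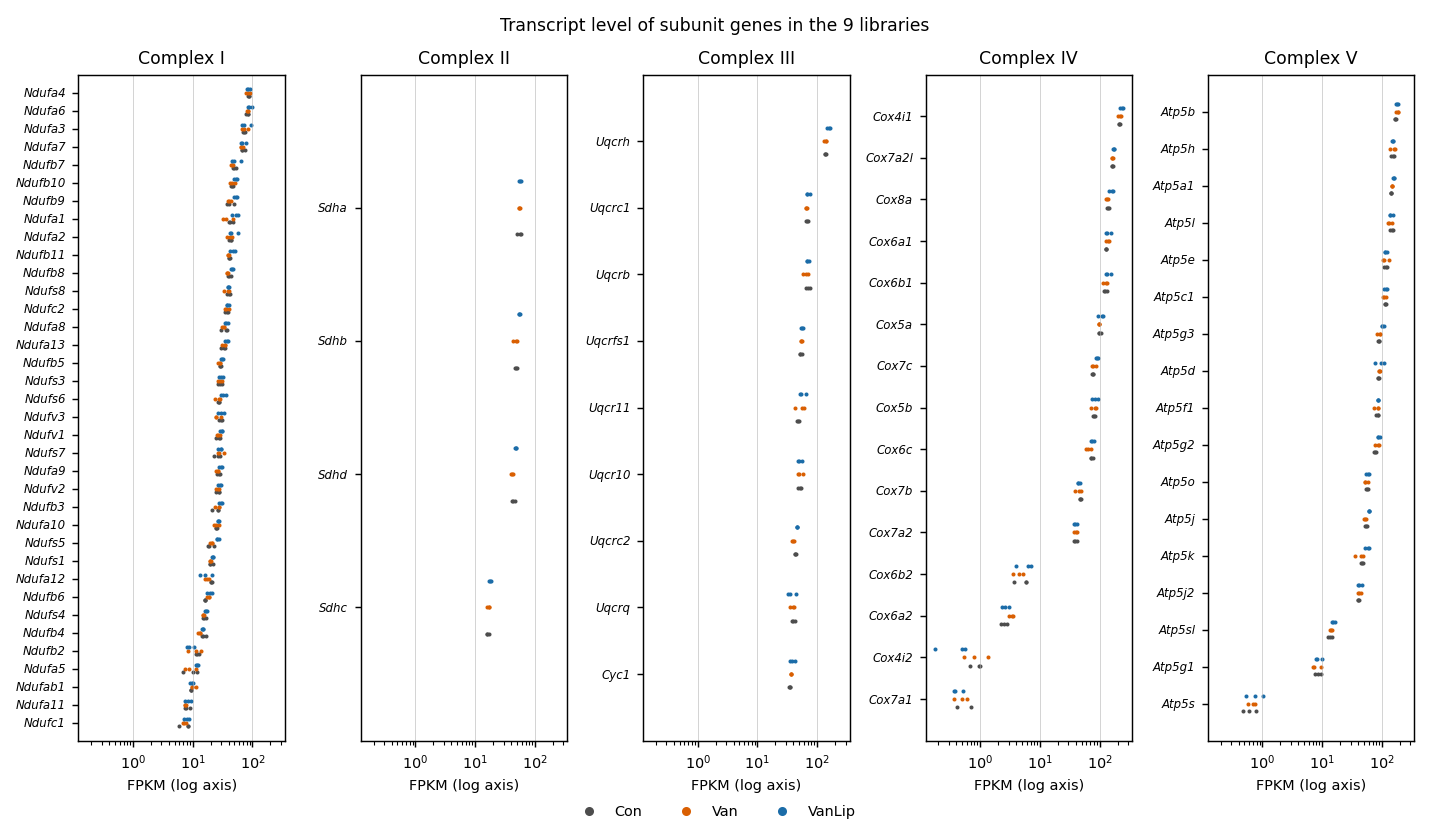
Level of members with a mean above 0.1 FPKM, by complex. Each point is 1 library, on a log FPKM axis, offset and coloured by group (Con lowest, VanLip highest within a gene's line), and values of 0 are not drawn. Most genes sit between 10 and 200 FPKM with the 9 libraries close together, and Cox6b2, Cox6a2, Cox4i2, Cox7a1 and Atp5s fall far below the other members of their complexes.

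The most abundant member of complex IV was Cox4i1 at 222 FPKM over all libraries, that of complex V was Atp5b, the catalytic beta subunit of ATP synthase, at 176, and that of complex III was Uqcrh, the hinge protein, at 143. Ndufa4 at 85.5 and Ndufa6 at 85.3 FPKM were the highest of the genes named for complex I, with overlapping values in every group, and Sdha, the flavoprotein of complex II, led its complex at 55.2 FPKM. Within complex II the iron-sulfur and membrane subunits followed in the order Sdhb at 50.4, Sdhd at 44.5 and Sdhc at 17.0 FPKM. Sdhc and Sdhd form the membrane anchor together, and the Sdhc values of 15.8 to 18.2 FPKM lay below every Sdhd value, which ran from 39.9 to 49.2.

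Several subunits have tissue isoforms, and in each family the widely expressed isoform was the high one here. Cox4i1 had 217 ± 3.0, 216 ± 13 and 234 ± 13 FPKM in Con, Van and VanLip, and Cox4i2, the isoform known from lung and hypoxia, had 0.885 ± 0.19, 0.901 ± 0.41 and 0.414 ± 0.21. Cox6a1 lay between 126 and 153 FPKM in every library and its heart and muscle isoform Cox6a2 between 2.23 and 3.59. Cox6b1 lay between 116 and 154 FPKM and the testis isoform Cox6b2 between 3.56 and 7.12. The muscle isoform Cox7a1 was at 0 in 1 Con library and at most 0.703 FPKM elsewhere, where Cox7a2 lay between 37.3 and 41.8 and Cox7a2l, which takes part in joining complexes III and IV, between 159 and 176. Cox8a lay between 127 and 166 FPKM. Cox8b had a count in 1 Van library only, and Cox7b2 and Cox8c were listed at 0 in all 9. Ndufa4l2, a relative of Ndufa4 known from hypoxia, was at 0 in 6 libraries and at most 0.273 FPKM in the others, so no fold is given for it.

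The c ring of ATP synthase is encoded by 3 genes whose products differ in the imported presequence. Atp5g3 had 94.1 and Atp5g2 83.2 FPKM over all libraries, against 8.42 for Atp5g1. Pseudogenes that match a member over at least 50% of the pseudogene's own length, at 90% identity or more, were listed for 35 members, 71 in number, and held between 0.600% and 0.783% of the counts of members and copies together. Atp5g2 had the highest share in its copies, 14.6% in Con, 14.1% in Van and 12.1% in VanLip, and its level is therefore less certain than that of the others.

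Changes between groups were tested on the counts with DESeq2 over all genes, and calls required an adjusted p no higher than 0.05. On simulated counts of this design DESeq2 called more unchanged genes than that threshold allows, and more than edgeR did, so edgeR counts are given for each comparison and each list. Normalized counts are counts divided by the size factor of the library, and they are compared for 1 gene at a time. Group differences in bulk RNA do not separate a change per cell from a change in the cell types present.

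Van against Con asked what the antibiotic course did to monocytes after the rest. None of the 83 members tested was called in this comparison, where 4.34% of all genes were, 803 of 18516. At an unadjusted p under 0.05 there were 4 members, 2 higher and 2 lower, where 11.1% of all genes with a p passed. edgeR likewise called 0, where it called 0.743% of all genes, with 3 members at an unadjusted p under 0.05, where 10.9% of all genes passed. The median log2 fold change of the members was -0.03 and that of all genes tested -0.01, and 28 of 83 members, 33.7%, had a positive value against 48.8% of all genes. This tally depended on the libraries and the scaling. Positive members numbered 41 of 80 without Van replicate 1, 18 of 83 without Van replicate 3 and 46 of 83 after a correction for GC content and gene length. For 77 of the 81 members averaging 50 normalized counts or more, the 95% interval of the log2 fold change lay inside 0.5 in both directions. No overlap between the Van and Con libraries was found for 7 members that were higher and 5 that were lower, 8.64% and 6.17% of 81, where 12.7% and 11.4% of all genes with such counts separated.

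The members with the lowest unadjusted p in each direction belonged to complex I or III. Ndufb4, an accessory subunit of the membrane arm, had normalized counts of 1322, 1345 and 1531 in Con and 1163, 1180 and 1219 in Van. Its groups did not overlap, and the log2 fold change was -0.23 ± 0.09 (SE) with a DESeq2 adjusted p of 0.138. Its 2 pseudogenes held 10.0% of the joint counts in Con and 10.6% in Van. Ndufa12, another accessory subunit, had 1170, 1195 and 1316 in Con and 965, 1025 and 1121 in Van, again without overlap, with a log2 fold change of -0.24 ± 0.11 and an adjusted p of 0.242.

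Uqcrc2, a core protein of complex III, had 7966, 7426 and 7295 in Con and 6813, 6836 and 7254 in Van, apart by a narrow gap, a log2 fold change of -0.12 ± 0.06 with an adjusted p of 0.377. On the higher side stood Ndufs7, the core subunit that carries the last iron-sulfur cluster before ubiquinone. It had 2111, 1908 and 2038 in Con and 2278, 2550 and 2180 in Van, a log2 fold change of 0.21 ± 0.10 with an adjusted p of 0.245. The groups were apart for Ndufs7, and also for Ndufb6, an accessory subunit, at 1022, 995 and 1010 against 1201, 1164 and 1089, with 0.19 ± 0.11 and an adjusted p of 0.417.

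VanLip against Van set mice given L654 after the antibiotic beside mice given the antibiotic without it. Of 82 members tested, 12 were called, or 14.6%, and all 12 were higher in VanLip, where 9.86% of all genes were called, 4.58% as higher and 5.28% as lower. The median log2 fold change was 0.11 over the members and 0.01 over all genes, and 71 of 82 members, 86.6%, had a positive value against 51.9% of all genes. Replicates did not overlap for 24 of 81 members that were higher, 29.6% where 14.1% of all genes separated, and for 0 that were lower, where 14.4% did. The changes were small, since the called members rose by 0.19 to 0.42 on the log2 scale. Called genes belonged to every complex, 6 of 37 tested in complex I, 2 of 4 in complex II, 1 of 9 in complex III, 1 of 15 in complex IV and 2 of 17 in complex V, as the plot of fold changes by complex shows.

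**Figure D2:**
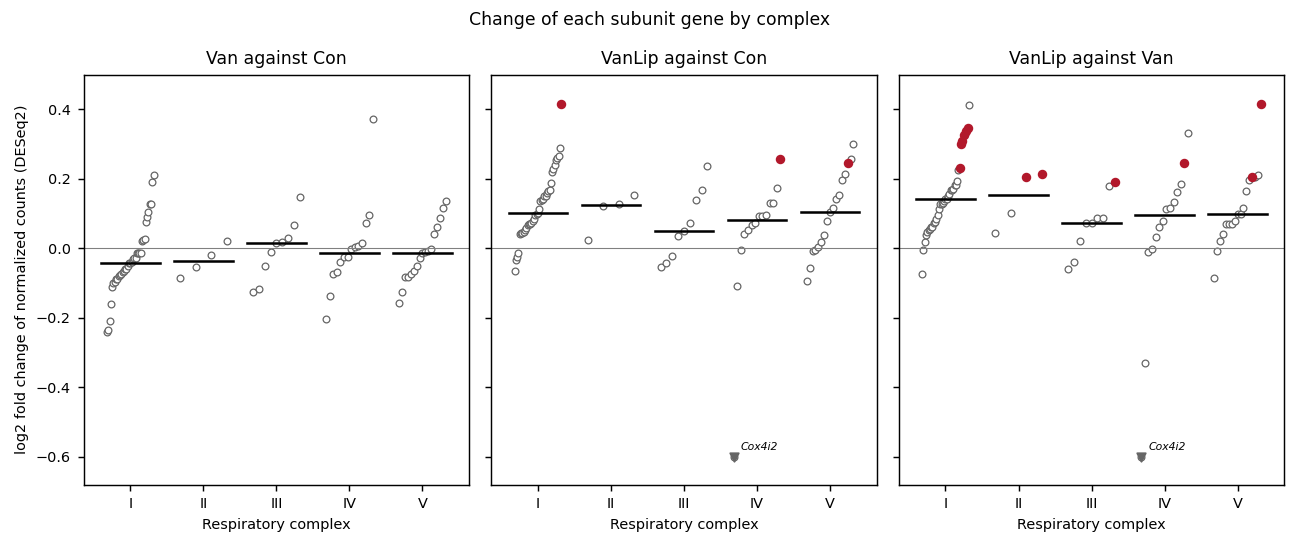
DESeq2 log2 fold change of the 81 members averaging 50 normalized counts or more, by complex, in the 3 comparisons. Filled red points passed the adjusted p threshold of 0.05, open points did not, black bars are medians, and triangles mark Cox4i2, whose values of -1.13 and -1.15 lie below the axis. Points in Van against Con straddle 0 without a call, and in both VanLip comparisons most points lie above 0, with 3 and 12 called.

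The calls of this comparison were not stable. edgeR called 0 of 84 members, where it called 2.86% of all genes, and had 28 members at an unadjusted p under 0.05, where 15.4% of all genes passed. The DESeq2 count fell from 12 to 0 without Van replicate 1, without Van replicate 2 or without VanLip replicate 1, where 6.23%, 6.55% and 8.21% of all genes were called. The median log2 fold change of the members in these fits was 0.09, 0.12 and 0.12. The count was 1 without VanLip replicate 2, where 8.55% of all genes were called and the median was 0.08, and 7 and 6 without Con replicates 1 and 2, where 9.06% and 8.48% were.

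The 6 called genes of complex I were all accessory subunits. The 7 core subunits, which hold the flavin and the iron-sulfur clusters, had log2 fold changes between 0.02 and 0.14 with a median of 0.06 and no call, and the 30 accessory genes tested had a median of 0.16. This division was made with the values known and the difference was not tested.

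Ndufb9, an accessory subunit of the membrane arm (chr15:58933756-58939488, plus strand, GRCm38), had normalized counts of 2390, 2555 and 2962 in Con, 2530, 2405 and 2690 in Van and 3311, 3309 and 3024 in VanLip. Every VanLip library lay above every other library. The log2 fold change of VanLip against Van was 0.34 ± 0.10 (SE), with an adjusted p of 0.0110. Ndufb9 overlaps the gene model Gm49356 on the same strand, and the 2 could have exchanged reads.

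Ndufs5, an accessory subunit on the intermembrane side (chr4:123712710-123718202, minus strand), had 909, 941 and 1102 in Con, 1001, 1061 and 1073 in Van and 1286, 1342 and 1301 in VanLip. VanLip lay above both other groups without overlap, by 0.33 ± 0.10 against Van with an adjusted p of 0.0170. Of the counts of Ndufs5 and its pseudogene together, the pseudogene held 5.18% in Con, 4.32% in Van and 4.37% in VanLip.

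Ndufv3, an accessory subunit of the NADH-oxidising module (chr17:31520115-31531331, plus strand), had 1738, 1856 and 2167 in Van and 2442, 2681 and 2207 in VanLip, apart by a narrow gap. Its Con values of 2285, 2168 and 2201 overlapped the lower end of the VanLip range. The log2 fold change of VanLip against Van was 0.35 ± 0.11, with an adjusted p of 0.0229. In FPKM the groups overlapped, since the highest Van library had 29.9 and the lowest VanLip library 26.8, and the estimated transcript length was 771 nt in Van and 861 nt in VanLip.

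Ndufa12 showed the same division between scales more strongly (chr10:94198720-94221443, plus strand). Its normalized counts of 1269, 1374 and 1189 in VanLip were above the Van values given above, a log2 fold change of 0.30 ± 0.11 with an adjusted p of 0.0481, and overlapped those of Con. Its FPKM values were 20.1, 20.0 and 21.1 in Con, 16.2, 18.6 and 17.5 in Van and 13.3, 16.2 and 20.7 in VanLip, so that VanLip spanned the Van range and overlapped that of Con. The estimated transcript length was 628 nt in Con, 626 nt in Van and 837 nt in VanLip. On the FPKM scale with a pseudocount of 1 the log2 difference was -0.09, and the direction for Ndufa12 therefore depends on the scale.

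Outside the rule for named genes, Ndufb8 and Ndufs6, chosen after their values were seen, complete the calls in complex I. Ndufb8 had a log2 fold change of 0.23 ± 0.08 with an adjusted p of 0.0401, and Ndufs6 0.31 ± 0.11 with 0.0481. Ndufb8 overlaps the gene model Gm20538 on the same strand.

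In complex II, Sdhb, the iron-sulfur protein that receives electrons from the flavoprotein (chr4:140961203-140979193, plus strand), had normalized counts of 5281, 5613 and 5111 in Con, 4788, 5308 and 5343 in Van and 5940, 5930 and 5929 in VanLip. The VanLip libraries were nearly equal and above all others. The log2 fold change against Van was 0.21 ± 0.07, with an adjusted p of 0.0397.

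Sdhd, an anchor subunit (chr9:50596357-50603812, minus strand), had 5322, 5696 and 5129 in Con, 4934, 5038 and 5254 in Van and 6070, 5632 and 5954 in VanLip. VanLip was above Van without overlap and reached into the Con range, with a log2 fold change against Van of 0.21 ± 0.07 and an adjusted p of 0.0262. Sdha at 0.04 ± 0.07 and Sdhc at 0.10 ± 0.08 were not called, with adjusted p of 0.805 and 0.506.

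In complex III, Uqcrc2 was called (chr7:120635176-120659524, plus strand). Its VanLip counts of 8115, 7768 and 7960 lay above the Van counts and overlapped those of Con, with a log2 fold change against Van of 0.19 ± 0.06 and an adjusted p of 0.0306. The catalytic subunits Cyc1, which carries the c-type haem, and Uqcrfs1, the Rieske iron-sulfur protein, had values of 0.07 and 0.02 and were not called. Uqcrh, the most abundant of its complex, stood at 0.18 ± 0.07 with an adjusted p of 0.0618.

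In complex IV, Cox8a, a small membrane subunit (chr19:7215153-7217616, minus strand), had 7375, 7516 and 6761 in Con, 6667, 6938 and 6985 in Van and 8416, 8485 and 7527 in VanLip. The lowest VanLip library lay just above the highest Con library. The log2 fold change against Van was 0.25 ± 0.08, with an adjusted p of 0.0170. Cox4i2 had 69, 71 and 46 in Con, 56, 38 and 95 in Van and 12, 39 and 34 in VanLip, and its log2 fold change of -1.15 ± 0.53 against Van did not pass, with an adjusted p of 0.171. Cox6a2, at 190, 221 and 217 in Van and 147, 160 and 193 in VanLip, overlapped by 1 library and had -0.33 ± 0.21 with an adjusted p of 0.378.

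In complex V, Atp5k, the e subunit of the membrane sector (chr5:108433244-108434448, minus strand), had 1717, 1801 and 1611 in Con, 1302, 1542 and 1755 in Van and 2133, 2142 and 1860 in VanLip. It was the called member with the highest fold change, 0.42 ± 0.12 against Van, with an adjusted p of 0.0121. Every VanLip library was above every Con and Van library, and the Van values were spread by more than those of the other groups.

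Atp5g3, of the c ring (chr2:73908447-73911326, minus strand), had 6247, 6180 and 5968 in Con, 5909, 6415 and 6593 in Van and 7155, 7644 and 7009 in VanLip. VanLip was again apart from both groups, with 0.21 ± 0.07 against Van and an adjusted p of 0.0373. The other c ring genes, Atp5g2 at 0.10 and Atp5g1 at 0.21, were not called. The 5 genes of the catalytic head and central stalk, Atp5a1, Atp5b, Atp5c1, Atp5d and Atp5e, ran from -0.01 to 0.11 without a call, and Atp5h of the peripheral stalk, at 7595, 8692 and 9098 in Van and 7848, 8106 and 7958 in VanLip, had -0.09 ± 0.08 with an adjusted p of 0.635.

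**Figure D3:**
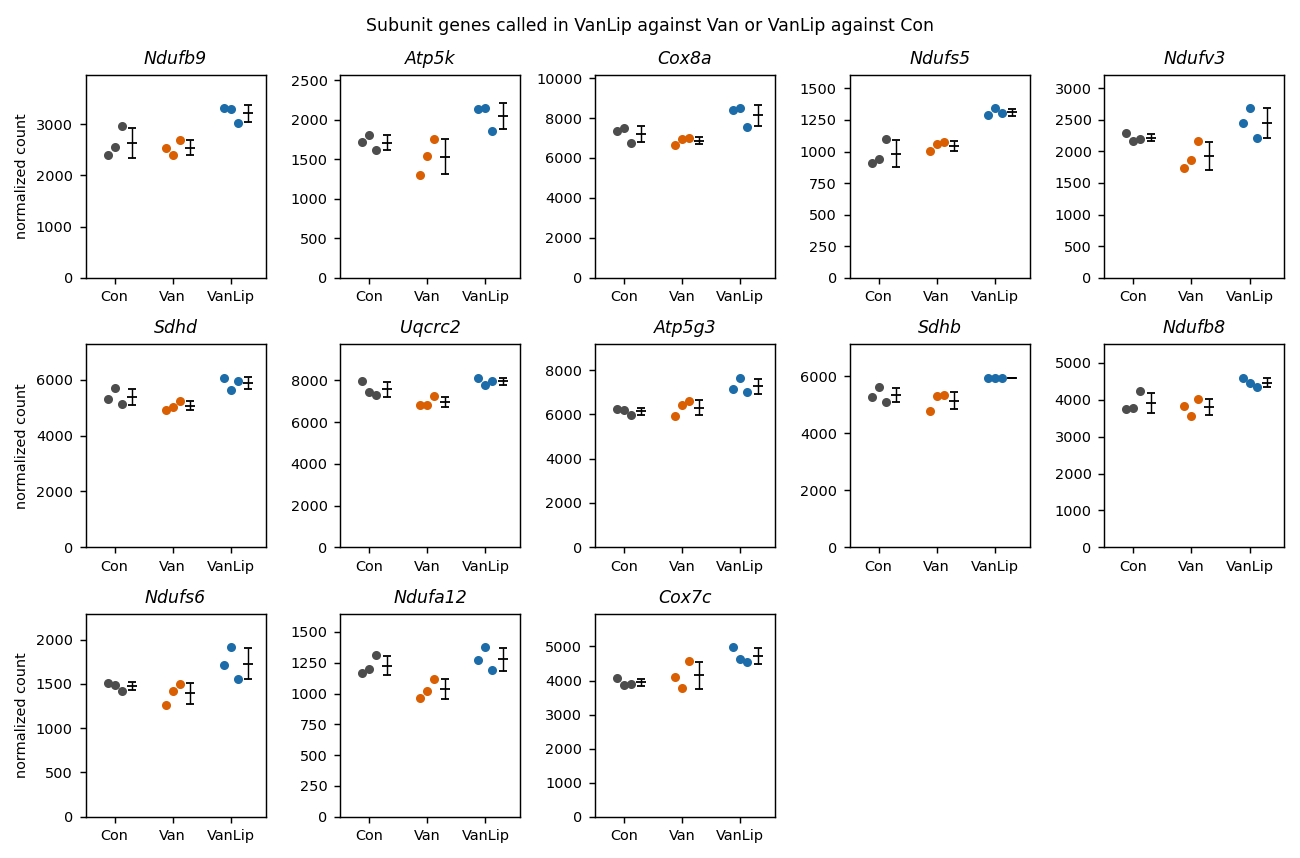
Normalized counts of the 13 members called in VanLip against Van or VanLip against Con, on axes that start at 0. Points are libraries coloured by group, and the bar beside each group is its mean with 1 SD (n = 3). The 3 VanLip points stand above the 3 Van points in all panels except Cox7c, where the groups overlap, and the steps are small against the level.

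VanLip against Con set mice given vancomycin and L654 beside mice given water. Of 82 members tested, 3 were called, or 3.66%, all higher, where 6.67% of all genes were called and 2.98% as higher. The median log2 fold change was 0.09 over the members and 0.01 over all genes, and 68 of 82 members, 82.9%, were positive against 51.6% of all genes. Replicates did not overlap for 28 of 81 members that were higher, 34.6% where 13.1% of all genes separated, and for 2 that were lower, 2.47% where 11.3% did. This holds for normalized counts, and some members were apart in counts but not in FPKM, or the reverse. Ndufb2, chosen after its values were seen, was apart as higher in counts, at a log2 fold change of 0.15. In FPKM it was apart as lower, at -0.39.

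Ndufs5 had the lowest adjusted p of these, with the counts given above, a log2 fold change of 0.42 ± 0.10 and an adjusted p of 0.00193. Atp5g3 stood at 0.25 ± 0.07 with an adjusted p of 0.0124. Cox7c, a small membrane subunit of complex IV (chr13:86044816-86046904, minus strand), had 4067, 3881 and 3903 in Con, 4100, 3791 and 4574 in Van and 4971, 4644 and 4542 in VanLip, so that VanLip was apart from Con and overlapped Van. Its log2 fold change was 0.26 ± 0.09 with an adjusted p of 0.0450, and its pseudogenes held 8.29% of the joint counts in Con and 6.33% in VanLip. The number called was 1 without Con replicate 1, Con replicate 2 or VanLip replicate 2, where 3.39%, 3.85% and 4.00% of all genes were called, and 6 without VanLip replicate 3, where 8.15% were. edgeR called 0, where it called 1.14% of all genes, with 24 at an unadjusted p under 0.05, where 13.1% of all genes passed.

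The lower members of this comparison did not pass. Cox4i2 had -1.13 ± 0.53 with an adjusted p of 0.212 and its VanLip and Con libraries did not overlap. Cox7b, a complex IV subunit, had 4469, 4677 and 4482 in Con and 4194, 4337 and 4120 in VanLip, apart as well, with -0.11 ± 0.09 and an adjusted p of 0.577. Atp5h had 8634, 8878 and 8013 in Con against the VanLip counts given above, with -0.09 ± 0.08 and an adjusted p of 0.603. The likelihood-ratio test of any difference among the 3 groups called 5 members of 82, Ndufs5, Atp5g3, Ndufb9, Atp5k and Cox8a, with adjusted p from 0.00116 to 0.0306, where 13.5% of all genes were called. edgeR called 0 of 84 for any difference, where it called 2.88% of all genes. At an unadjusted p under 0.05 it had 24 members, where 4214 of 25441 genes passed. The comparisons share libraries, so their fold changes are not independent of each other.

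Many members had their lowest or highest value in the same library. Of the 81 members averaging 50 normalized counts or more, 38 were lowest of the 9 libraries in Van replicate 1, and 40 were highest in VanLip replicate 2. Such counts were not made for other genes, so they do not set the members apart from the rest of these libraries. The per-library medians of the centred log2 counts were -0.03, 0.01 and -0.07 in Con, -0.12, -0.06 and 0.02 in Van and 0.06, 0.13 and 0.01 in VanLip. Van replicate 3 lay above VanLip replicate 3, and Con replicate 2 lay above it too by a small margin, so that the groups overlapped when the members were read as a whole.

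**Figure D4:**
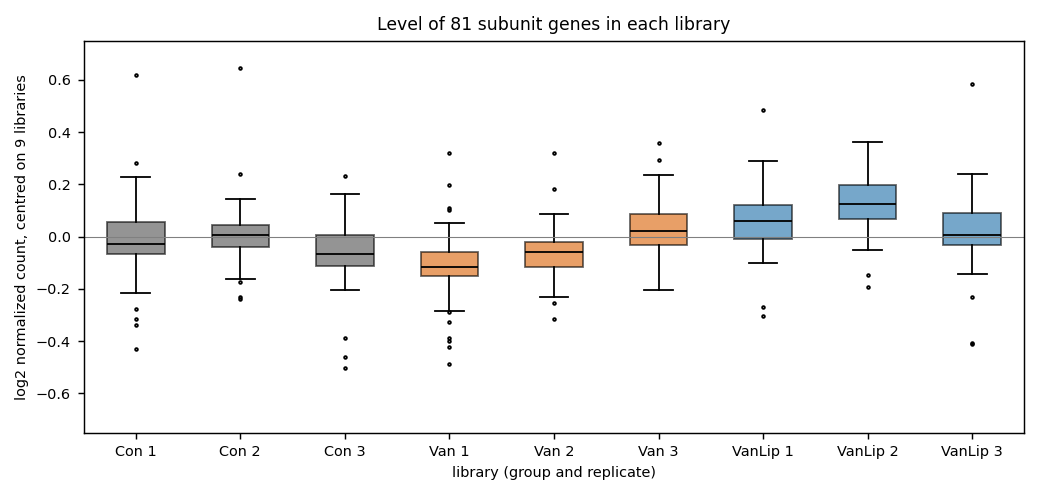
Centred log2 normalized counts of 81 members in each library. Boxes span the quartiles with the median as a line, whiskers reach 1.5 interquartile ranges, dots are genes beyond them, and 2 values of Cox4i2 lie outside the axis. Van replicate 1 sits lowest and VanLip replicate 2 highest, and Van replicate 3 overlaps VanLip replicate 3.

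The subunit transcripts share a short length, which the choice by name did not use. The median estimated length was 836 nt over 81 members and 2794 nt over 11484 other protein-coding genes with such counts, and 50 of the 81 were under 1000 nt. In both VanLip comparisons the median fold change of the other genes fell with length above 1000 nt. Against Van, their median log2 fold change was 0.08 between 500 and 1000 nt, 0.06 between 1000 and 2000 nt, 0.01 between 2000 and 4000 nt and -0.07 over 4000 nt. The members in the same classes had medians of 0.12 for 43 genes, 0.10 for 25 and 0.12 for 6. Under 500 nt the medians were 0.05 for 7 members and 0.03 for 53 other genes.

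Between 500 and 1000 nt, 88.4% of the members were positive against 66.8% of 701 other genes. Against Con the medians in that class were 0.10 for the members and 0.08 for the others. Between 1000 and 2000 nt both were 0.08, with 96.0% of the members and 69.8% of the others positive, and between 2000 and 4000 nt they were 0.10 for 6 members and 0.03 for the others. Under 500 nt they were 0.08 for 7 members and 0.01 for 53 other genes, with 57.1% and 52.8% positive. In Van against Con, where the implied read length was the same, the members had -0.02 and the other genes 0.00 between 500 and 1000 nt, and the medians of the other genes lay between -0.02 and 0.02 in all classes. After a correction for GC content and gene length the members had a median of 0.00 for VanLip against Van, where all genes had -0.08, and 1 member was called, as lower, where 13% of all genes were called, 477 as higher and 1774 as lower. With the corrected counts rescaled by median of ratios, chosen after seeing the data, the members had 0.09 and all genes 0.01, and 7 members were called, all higher, where 9.66% of all genes were called. Positive members in VanLip against Van numbered 40 of 82 after the correction and 66 of 83 after the rescaling. In VanLip against Con they numbered 47 of 82 and 65 of 83.

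**Figure D5:**
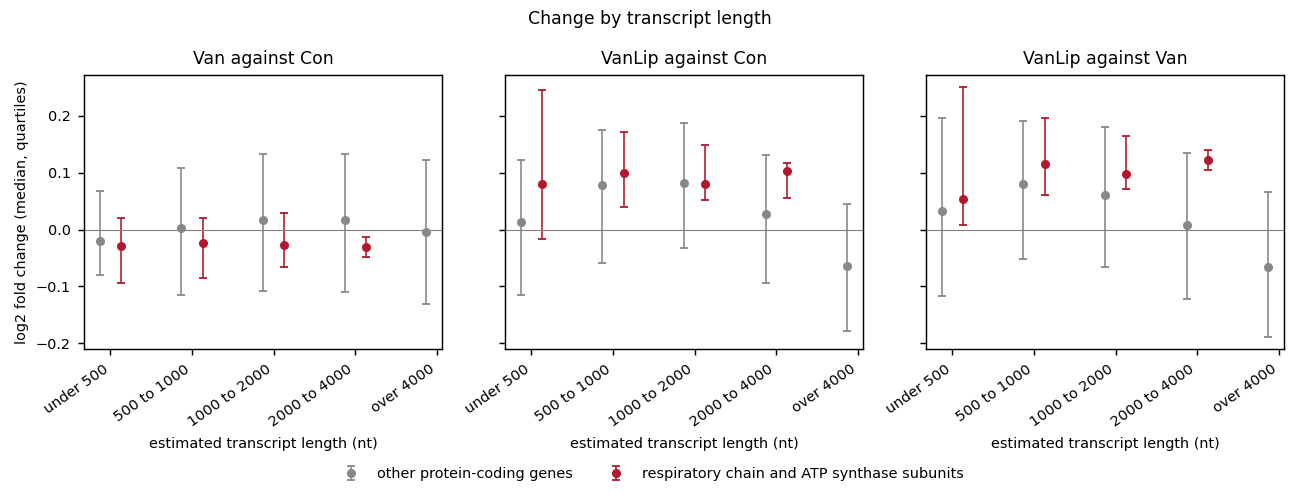
Median log2 fold change by class of estimated transcript length for the members and for other protein-coding genes averaging 50 normalized counts or more. Points are medians and bars run from the lower to the upper quartile over genes, and no member is over 4000 nt. In the VanLip comparisons the grey medians fall from the class of 1000 to 2000 nt to that over 4000 nt and the members stay between 0.05 and 0.12.

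Other nuclear genes of the pathway gave few calls, at most 2 for any list in any comparison, and the subunits encoded in mitochondrial DNA gave many. Over all genes, 4.34% were called in Van against Con, 6.67% in VanLip against Con and 9.86% in VanLip against Van. In the list of complex I and IV assembly factors, 37 genes were tested, and 2 were called higher in VanLip than in Van, among them Cox15, which makes haem A for complex IV, at 0.28 ± 0.08 with an adjusted p of 0.0140. The other was Pet117, a complex IV assembly factor, whose mean normalized counts were 3.79 in Van and 30.6 in VanLip. In Van against Con, Cmc1, a copper-handling factor of complex IV, was lower at -0.47 ± 0.13 with an adjusted p of 0.0161. Of 13 assembly factors of complexes II, III and V, Uqcc3 of complex III was the 1 called, higher than in Con both in Van, at 0.35 ± 0.11 with an adjusted p of 0.0449, and in VanLip, at 0.55 ± 0.11 with 6.38e-05.

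Of 16 citric acid cycle genes 1 was called in VanLip against Van, Suclg1, a subunit of succinyl-CoA ligase, at 0.23 ± 0.07 with an adjusted p of 0.0118, and 0 in the other comparisons. Of 17 genes for electron carriers and ubiquinone synthesis, Coq9 was higher in VanLip than in Con at 0.27 ± 0.08 with an adjusted p of 0.0255, and Gpd2, the mitochondrial glycerol phosphate dehydrogenase, was lower in VanLip than in Van at -0.39 ± 0.09 with 0.000333. Of 10 regulators of respiratory chain genes tested, Pprc1, a coactivator, was lower in VanLip than in Van at -0.42 ± 0.13 with an adjusted p of 0.0140. Sp1, a widely expressed factor, was lower in VanLip than in Con at -0.21 ± 0.06 with 0.0238. The 3 further ATP synthase genes found had no call.

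Among 11 genes of mitochondrial DNA transcription and maintenance, Polrmt, the mitochondrial RNA polymerase, was higher in Van than in Con at 0.42 ± 0.13 with an adjusted p of 0.0362, and Ssbp1, the single-strand binding protein, was higher in VanLip than in Van at 0.32 ± 0.09 with 0.00549. Of 23 import and carrier genes, Timm13, a small chaperone of the intermembrane space, was higher than in Con in Van and VanLip, at 0.36 and 0.42. Tomm6, of the outer membrane translocase, was lower in VanLip than in Con and Van, at -0.52 and -0.48, and Slc25a4, the ADP/ATP carrier, was higher in VanLip than in Van at 0.28. Of the 13 subunits encoded in mitochondrial DNA, 12 were called lower in Van against Con, where the median was -0.36, 11 were lower in VanLip than in Con, with a median of -0.28, and 0 were called for VanLip against Van, with a median of 0.09. edgeR called 5 of these 13 lower in Van against Con and 0 in each VanLip comparison. It called 0.743% of all genes in Van against Con, 1.14% in VanLip against Con and 2.86% in VanLip against Van. At an unadjusted p under 0.05 it had 13, 11 and 3 of these subunits in the same order, where 10.9%, 13.1% and 15.4% of all genes passed. Of the nuclear genes in these lists, edgeR called Uqcc3 and Tomm6 in VanLip against Con and Gpd2 and Tomm6 in VanLip against Van, and the other DESeq2 calls named from the lists did not pass in edgeR.

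Promoters of the members were searched for letters of 3 factors known for respiratory chain genes, in the RefSeq table of GRCm38.p6, from 250 bases before to 50 after the start. A promoter was found for 70 members. The letters CGCANGCG, the core of the NRF1 site, were present on either strand in 34.3% of them, where 8.46% of 27025 promoters of all genes held them, and 17.9% of the 9369 whose gene averaged 50 normalized counts or more. The ETS letters CCGGAAG, bound by GABP, were present in 21.4%, against 9.14% and 19.5%. The YY1 letters AAGATGGC were present in 14.3%, against 2.87% and 5.01%. Any of the 3 was present in 58.6% of the members and in 9 of the 10 called in VanLip against Van that had a promoter, against 18.1% and 36.5%. Of the general promoter letters, TATAAA was present in 10.0% of the members, against 14.2% and 6.98%, and CCAAT in 44.3%, against 38.0% and 39.3%.

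Up to 200 bases before the RefSeq start site are shown for the 4 called members with the lowest adjusted p that had a promoter in the table, to set genes with and without such letters side by side. Capitals mark letters of NRF1, ETS or YY1 matches, read from 5′ to 3′ on the strand of the gene. The windows are chr5:108434441-108434599 (minus) for Atp5k, chr19:7217617-7217816 (minus) for Cox8a, chr4:123718203-123718386 (minus) for Ndufs5 and chr17:31519915-31520114 (plus) for Ndufv3.
Atp5k: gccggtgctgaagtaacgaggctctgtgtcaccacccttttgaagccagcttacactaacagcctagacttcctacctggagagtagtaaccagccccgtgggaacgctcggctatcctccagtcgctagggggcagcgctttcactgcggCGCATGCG
Cox8a: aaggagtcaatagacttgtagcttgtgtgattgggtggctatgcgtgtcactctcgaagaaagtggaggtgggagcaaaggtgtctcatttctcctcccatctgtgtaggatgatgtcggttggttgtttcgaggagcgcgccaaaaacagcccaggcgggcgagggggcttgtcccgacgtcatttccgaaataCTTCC
Ndufs5: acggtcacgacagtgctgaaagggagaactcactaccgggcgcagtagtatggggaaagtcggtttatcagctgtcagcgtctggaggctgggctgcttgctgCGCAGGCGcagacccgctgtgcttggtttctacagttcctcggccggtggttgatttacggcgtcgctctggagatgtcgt
Ndufv3: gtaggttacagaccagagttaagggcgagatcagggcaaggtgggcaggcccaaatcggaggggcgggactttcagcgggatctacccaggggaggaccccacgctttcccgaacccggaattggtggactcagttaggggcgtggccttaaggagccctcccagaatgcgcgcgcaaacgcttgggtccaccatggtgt

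The NRF1 letters began 49 bases before the RefSeq start in Atp5k and 97 bases before it in Ndufs5. GENCODE models of these 2 genes begin further upstream than those of RefSeq, and their windows stop there, after the match in Atp5k. In Cox8a the capitals are the first 5 bases of an ETS match on the opposite strand that ran past the start, and Ndufv3 held none of the 3 in its window. Atp5k and Cox8a each had an ETS match after the start that lies outside the stretch shown. Such matches describe the sequence and were not tied to the changes in these libraries.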

How the data were processed

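RNA of splenic monocytes was sequenced in 9 libraries. Per the labels and the study's methods, the authors aligned reads to GRCm38 with HISAT2 2.2.1, deposited FPKM values per gene from StringTie 2.1.3, and deposited expected counts made from them with tximport 1.26.1. The annotation release and the strand setting are not given in the sources used here. Groups were taken from sample titles, and all columns were used. Expected counts were rounded and fitted with DESeq2 1.42.0 over all genes and 9 libraries (group as the term, median-of-ratios size factors, Wald and likelihood-ratio tests, Benjamini-Hochberg adjustment, threshold 0.05). edgeR 4.0.16 and limma 3.58.1, with pseudocounts of 1 and 0.1 on FPKM, were alternatives, beside other size factors, filters, thinning of VanLip, corrections for GC content and length, pseudogenes summed with members, a replicate block and leaving out each library. Estimated transcript length is the count per FPKM of a gene rescaled to nucleotides. Coordinates came from GENCODE M21, which held all 86 members, and sequences from RefSeq GRCm38.p6. Pseudogene copies were found with BLAST 2.17.0.

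Members and gene lists were chosen with earlier results of these data known. Members were named with full values when called (up to 8 per direction), when lowest in unadjusted p where fewer than 3 were called (up to 3), when highest in FPKM in a complex, or when in a listed isoform family, complex II or Ndufa12. Values of 1 member named by this rule are not reported here. The deposited expected counts are larger than the fragments behind them, so counting error is larger than the printed counts imply.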

Additional observations from a re-analysis of the deposited data

How the results depend on the processing

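The number of members called depended on the processing, and their median did so under 1 alternative. For VanLip against Van, 12 were called in DESeq2, against 0 in edgeR, 17 with TMM sizes, 7 without independent filtering, 4 with only the groups compared, 7 with VanLip thinned, 1, 0 and 1 in limma (pseudocounts of 1 and 0.1, then only genes averaging 1 FPKM or more) and 1 (lower) after the GC and length correction. The share of all genes called in the same fits was 9.86% in DESeq2, 2.86% in edgeR, 10.4% with TMM sizes, 6.12%, 7.81% and 8.19% in the next 3, 2.64%, 1.98% and 7.08% in limma and 13% after the correction. For VanLip against Con, 3 were called, against 0 in edgeR, 8 with TMM sizes and 0, 0 and 1 in limma, where 6.67%, 1.14%, 6.42%, 0.908%, 0.643% and 2.89% of all genes were. For any difference, 5 were called, against 0 in edgeR, 17 with TMM sizes, 0, 0 and 1 in limma and 3 after the correction, where 13.5%, 2.88%, 13.1%, 2.19%, 1.3%, 6.18% and 13.1% of all genes were. Leaving out 1 library gave 0 to 12 calls for VanLip against Van, 1 to 6 for VanLip against Con, 1 to 10 for any difference and 0 for Van against Con, where every alternative gave 0. All-gene shares then ran from 6.23% to 10.3%, 3.39% to 8.15%, 8.63% to 15.2% and 2.37% to 6.48%.

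The median log2 fold change of the members stayed within the spread between libraries except after the GC and length correction, with 0.0188 against Con and -0.0035 against Van in the VanLip comparisons, where all genes shifted to -0.06 and -0.08. Leaving out 1 library gave -0.07 to 0.00 for Van against Con, 0.06 to 0.11 for VanLip against Con, and 0.08 to 0.15 against Van. Among all genes called in VanLip against Van, 826 were higher and 951 lower, 1013 and 809 with TMM sizes, 391 and 336 in edgeR, and 477 and 1774 after that correction. Against Con, 494 were higher and 610 lower, 657 and 500 with TMM sizes, 157 and 132 in edgeR and 263 and 812 after the correction. Transcript length as an offset, chosen after seeing the data, called 9 in VanLip against Van, where 8.76% of all genes were.

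Replicate numbers gave no sign of pairing, since same-numbered libraries correlated between -0.065 and 0.123 and differently numbered ones between -0.141 and 0.128. With 3 libraries per group this cannot exclude a shared batch. With a replicate block, 3, 1 and 3 members were called for VanLip against Van, VanLip against Con and any difference, where 6.71%, 4.50% and 10.4% of all genes were. Of the 375 alternatives run on the 15 single-gene results that were called, 171 kept the call, 200 lost it and 4 reversed, all for Ndufa12 in VanLip against Van, at -0.0858, -0.0913 and -0.0858 in limma and -0.0675 with the length offset. Where not given by construction, the cause was not tested. The 7 members under 1 FPKM carried too few counts for a change of the size seen elsewhere to be detectable.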
